A study of Mus musculus with 5 samples.

Results

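Levels of 8 complement genes were followed across every annotated leukocyte class of 4 mouse tumour libraries and 1 library of cultured dendritic cells. The 8 genes were C1qa, C1qb, C1qc, C3, Cfb, Cfp, C3ar1 and C5ar1, chosen by name with earlier results of these data known. All 8 were found among the 18087, 19427 and 19603 gene columns of the 5555, CT26 and culture matrices. In C57BL/6 mice, 5555 melanoma cells were grown under the skin and live CD45+ leukocytes were sorted at day 4 for droplet sequencing on the 10x platform. Of the 5555 groups, the first was a Ptgs-/- tumour in a host treated with anti-NK1.1 (clone PK136) and anti-Asialo GM-1 to remove NK cells (3879 cells). The second was a Ptgs-/- tumour without depletion (4677 cells), and the third a Ptgs+/+ tumour (3262 cells). A CT26 tumour in a BALB/c host was taken at day 12 (8987 cells). Its deposited sample label is vehicle, and its class labels stand under the heading Cell subsets WT. Dendritic cells grown from C57BL/6 bone marrow with FLT3L and GM-CSF to day 10 were kept with Ptgs-/- 5555 cells (3584 cells), with Ptgs+/+ 5555 cells (3884 cells) or untreated (3344 cells), and these 3 conditions were hashtagged in 1 library. The deletion was in the injected tumour cells, which the CD45+ sort leaves out, so the sequenced cells came from the hosts and the deletion could not be checked here. How many mice or cultures went into each library is not given in the sources used here, and tumour and host are written in the singular for each library. Each group was 1 library or 1 hashtagged condition, so no difference has a replicate check, and every interval covers counting error only.

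Complement is a set of plasma and tissue proteins that tags particles for uptake and draws in inflammatory cells. C1q, built from the A, B and C chains that C1qa, C1qb and C1qc encode, binds antibody and dying cells and opens the classical pathway, and tissue macrophages are its main source. C3 is the hub on which all pathways meet. Factor B, from Cfb, forms the convertase of the alternative pathway, and properdin, from Cfp, stabilises that convertase. C3ar1 and C5ar1 encode the receptors for the small fragments C3a and C5a, which act on myeloid cells.

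Levels are the mean, over the cells of a class, of CPM, the unique molecular identifiers (UMIs) of a gene scaled to 1000000 per cell, and 1 UMI stands for 1 captured 3′ end, so no length term enters. Folds are log2 of the ratio of mean CPM after adding 5 CPM, taken relative to the median gene where that gene shifted by over 0.1. Between the Ptgs-/- and Ptgs+/+ tumours this applied to TAM 3, with a shift of 0.13, and to neutrophils, with 0.19. A gene was called higher or lower when it was past 1.5-fold by size and its UMIs were found in 5% or more of the cells in 1 of the groups compared, at least. Total UMIs ran from 13341157 in the Ptgs+/+ tumour to 39748601 in the CT26 tumour, and median UMIs per cell were 5462 in the NK cell-depleted, 4563 in the undepleted Ptgs-/-, 3634 in the Ptgs+/+ and 3821 in the CT26 tumour. In the 5555 matrix 18 cells that shared 9 barcodes and 36 cells without an annotation were left out. Between matrices 23 to 44 barcodes were shared. NK cells numbered 45 in the depleted tumour, against 510 in the undepleted Ptgs-/- tumour.

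All 8 genes lie on the minus strand of GRCm38, and the C1q genes form 1 cluster on chromosome 4: C1qb at 136880129 to 136886187, C1qc at 136889804 to 136893065 and C1qa at 136895917 to 136898803. C3 (57203970 to 57228136) and Cfb (34856374 to 34862518) are both on chromosome 17. C3ar1 is at 122847138 to 122856161 on chromosome 6, C5ar1 at 16246743 to 16259540 on chromosome 7 and Cfp at 20925454 to 20931555 on chromosome X. RefSeq promoter windows matched 6 of the 8 genes. The 250 bases before the RefSeq start are shown for 3 genes with contrasting patterns below: a C1q chain, C3 (which peaked in the cluster where C1q was lowest) and C3ar1 (the gene called higher in the Ptgs-/- than in the Ptgs+/+ tumour in all 7 clusters of monocytes and macrophages). They are read 5′ to 3′ along the minus strand (GRCm38.p6), with capitals for matches on either strand to a C/EBP-type motif, TTGNNNAA.
C1qb, chr4:136886201-136886450: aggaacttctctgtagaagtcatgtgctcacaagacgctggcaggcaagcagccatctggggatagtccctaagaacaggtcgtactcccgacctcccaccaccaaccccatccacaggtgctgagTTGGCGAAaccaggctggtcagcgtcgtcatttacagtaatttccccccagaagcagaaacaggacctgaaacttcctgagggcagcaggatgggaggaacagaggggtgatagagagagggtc
C3, chr17:57228137-57228386: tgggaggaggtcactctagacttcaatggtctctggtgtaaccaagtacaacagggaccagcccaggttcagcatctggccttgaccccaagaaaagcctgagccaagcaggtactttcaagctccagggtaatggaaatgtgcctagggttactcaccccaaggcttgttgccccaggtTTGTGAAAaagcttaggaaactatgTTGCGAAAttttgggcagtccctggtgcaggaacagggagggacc
C3ar1, chr6:122856158-122856407: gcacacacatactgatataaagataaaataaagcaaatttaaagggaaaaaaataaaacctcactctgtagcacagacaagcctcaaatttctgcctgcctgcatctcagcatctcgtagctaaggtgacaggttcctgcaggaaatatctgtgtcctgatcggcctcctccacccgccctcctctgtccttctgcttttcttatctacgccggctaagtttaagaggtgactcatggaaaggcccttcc
The C1qb window held 1 match and the C3 window 2 matches, which do not overlap each other. The C3ar1 window held none of the 7 motifs searched. A C/EBP-type match occurred in 33.3% of all 32851 promoter windows of this length, a PU.1-type match (GAGGAAG) in 10.6%, a Maf-type match (TGCTGAC) in 3.81%, an interferon-stimulated response element in 2.98%, an ETS/IRF composite element in 2.30%, a GAS match (TTCNNNGAA) in 7.02% and a CRE match (TGACGTCA) in 1.55%.

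The members divided the myeloid classes between them. In 5555 tumours the authors' annotation gives 7 clusters of monocytes and macrophages, namely TAM 1 to TAM 4 (TAM stands for tumour-associated macrophage), Mono Mac, Monocytes 1 and Monocytes 2. The C1q chains were highest in TAM 1 and Monocytes 1. C1qa averaged 1559 CPM in TAM 1 of the NK cell-depleted tumour, 1699 CPM in the undepleted Ptgs-/- tumour and 889 CPM in the Ptgs+/+ tumour. In Monocytes 1 the C1qa levels were 1369 CPM in the NK cell-depleted, 1636 CPM in the Ptgs-/- and 989 CPM in the Ptgs+/+ tumour. Monocytes 1 thus carried C1qa close to TAM 1 in the Ptgs-/- tumours and above it in the Ptgs+/+ tumour. It also carried a similar sum of the 8 macrophage markers, 7094, 8597 and 9646 CPM in the NK cell-depleted, Ptgs-/- and Ptgs+/+ tumours, against 8769, 10466 and 8670 CPM in TAM 1. Monocyte markers, 6 in all, summed to more in Monocytes 1, with 6335, 6217 and 5447 CPM in those 3 tumours, than in TAM 1, with 4007, 3261 and 1678 CPM, so Monocytes 1 carried markers of both lists.

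C3 peaked elsewhere. Monocytes 2 held the highest C3 level in each 5555 library, with 281 CPM in the NK cell-depleted, 271 CPM in the Ptgs-/- and 310.1 CPM in the Ptgs+/+ tumour, and 60.4%, 60.7% and 59.2% of its cells in that order had a C3 UMI. C1qa in the same cells was 15.0 CPM in the NK cell-depleted, 8.70 CPM in the Ptgs-/- and 3.48 CPM in the Ptgs+/+ tumour, the lowest of the 7 clusters in each library. A UMI of each C1q chain was seen in 2 of 449 Monocytes 2 cells of the NK cell-depleted tumour, 0 of 257 of the Ptgs-/- tumour and 0 of 348 of the Ptgs+/+ tumour, and the last 2 counts allow shares of such cells of up to 1.43% and 1.05%. Mono Mac lay at the other end for C3, with 4.76 CPM in the NK cell-depleted, 6.95 CPM in the Ptgs-/- and 13.9 CPM in the Ptgs+/+ tumour, the lowest of the 7 clusters in each library, while its C1qa level was intermediate. Over the 39 points of 13 classes in 3 libraries, C3 and the C1q chains had Pearson correlations of 0.40 to 0.42, and the points share libraries and depth.

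Cfb was rare and had 1 main source. It reached 35.7 CPM in Monocytes 1 of the NK cell-depleted tumour, 41.7 CPM in the Ptgs-/- tumour and 28.3 CPM in the Ptgs+/+ tumour. The next level in any class of these libraries was 11.2 CPM, in TAM 4 of the Ptgs-/- tumour. Cfp, in contrast, was broad, and its highest levels were in Mono Mac with 724 CPM in the NK cell-depleted, 596 CPM in the Ptgs-/- and 1114 CPM in the Ptgs+/+ tumour. Conventional type 2 dendritic cells (cDC2s) also carried it, at 358, 430.1 and 636 CPM in those 3 tumours.

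The receptors separated as well. C3ar1 was highest in TAM 1 and TAM 3, at 772 and 583 CPM in the NK cell-depleted, 846 and 803 CPM in the Ptgs-/-, and 331 and 386 CPM in the Ptgs+/+ tumour. The counting intervals of TAM 1 and TAM 3 overlapped in the Ptgs-/- and the Ptgs+/+ tumour, and those of TAM 1 and Monocytes 1 in the Ptgs+/+ tumour. C5ar1 was highest in neutrophils, at 432 CPM in the NK cell-depleted, 477 CPM in the Ptgs-/- and 680.1 CPM in the Ptgs+/+ tumour, ahead of TAM 1 at 330.4, 298 and 393 CPM. T cells served as the measure of free RNA. In T cells of the Ptgs-/- tumour (median 2076 UMIs) between 0% and 4.67% of 214 cells had a UMI of a given member, and in the Ptgs+/+ tumour (median 1642 UMIs) between 0% and 1.52% of 66 cells.

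**Figure D1:**
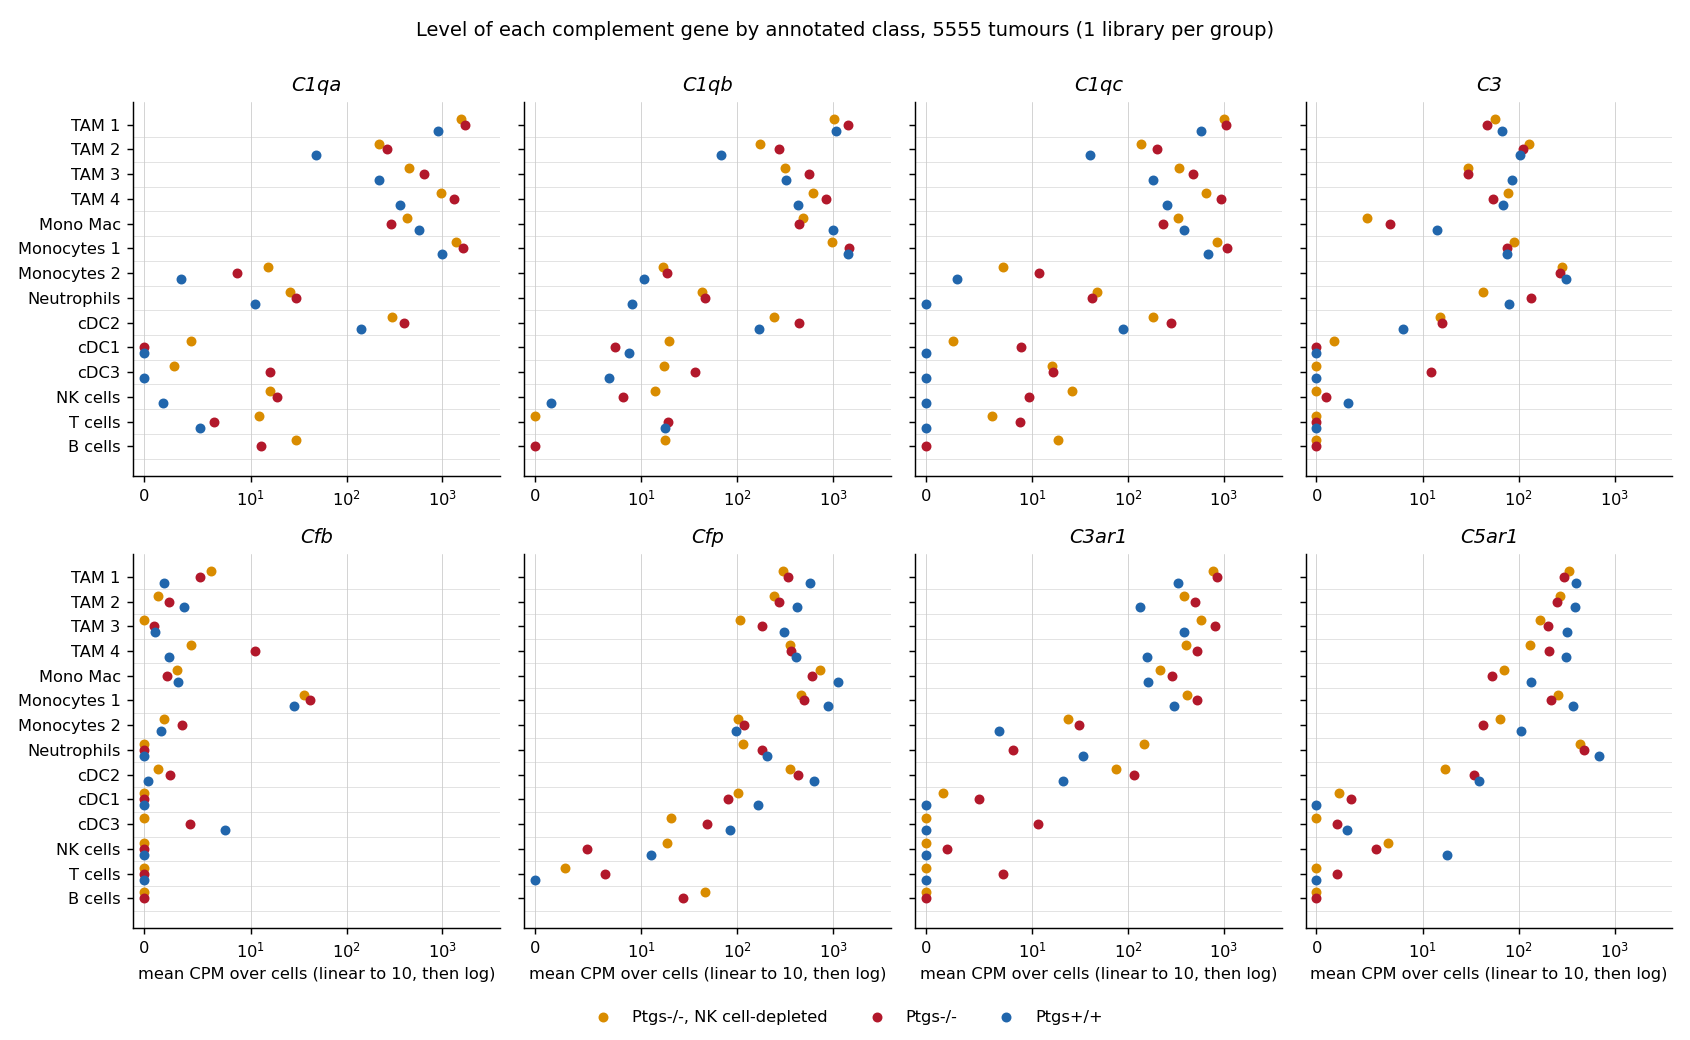
Mean CPM over cells (horizontal axis, linear to 10 and logarithmic above) of each gene in each annotated class of at least 30 cells (rows) of the NK cell-depleted Ptgs-/-, Ptgs-/- and Ptgs+/+ 5555 tumours, 1 point per library and no error bars. The C1q chains peak in TAM 1 and Monocytes 1, C3 peaks in Monocytes 2 at 271 to 310.1 CPM, and C5ar1 peaks in neutrophils.

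Monocytes and macrophages of the Ptgs-/- tumour (3184 cells) held more C1q and C3ar1, and less C3 and C5ar1, than those of the Ptgs+/+ tumour (2360 cells). Of the 8 members, 5 were called higher and 2 lower and 1 was within 1.5-fold, where 8.46% of the 7691 genes in at least 5% of cells were called higher and 6.57% lower. Since the members were chosen with earlier results of these data known, these shares give a scale for the counts and no test of the set. C1qa averaged 1129 CPM in the Ptgs-/- tumour, against 405 CPM in the Ptgs+/+ tumour, a log2 fold of 1.47 with a UMI ratio of 2.07 (95% interval 2.01 to 2.13). C1qc had 744 CPM in the Ptgs-/- and 275 CPM in the Ptgs+/+ tumour, a log2 fold of 1.42. C1qb had 960.4 CPM in the Ptgs-/- and 524 CPM in the Ptgs+/+ tumour, a smaller log2 fold of 0.87 with a UMI ratio of 1.45 (95% interval 1.41 to 1.48). The UMI ratios pool the UMIs of all cells, so they weight deep cells more than the folds do, and the intervals are those of the ratios. With cells weighted by depth the log2 folds of C1qa, C1qc and C1qb were 1.04, 1.04 and 0.53, and that of C1qb was within 1.5-fold. C1qa UMIs were found in 51.8% of the Ptgs-/- and 22.5% of the Ptgs+/+ cells, and in 47.0% and 20.9% after each cell was thinned to 2000 UMIs (2892 and 2083 cells deep enough).

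Among C3, Cfb and Cfp the directions split. C3 averaged 70.9 CPM in the Ptgs-/- and 115 CPM in the Ptgs+/+ tumour, a log2 fold of -0.66 (UMI ratio 0.570, 95% interval 0.522 to 0.621). Cfb averaged 12.5 CPM in the Ptgs-/- and 4.89 CPM in the Ptgs+/+ tumour, a log2 fold of 0.83. It passed the 5% filter through the Ptgs-/- tumour alone, with 6.41% of cells against 1.91%. Cfp averaged 348 CPM in the Ptgs-/- and 462 CPM in the Ptgs+/+ tumour, a log2 fold of -0.40, short of 1.5-fold, and was seen in 63.6% and 64.7% of cells.

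The 2 receptors differed in opposite directions. C3ar1 averaged 602 CPM in the Ptgs-/- and 209.5 CPM in the Ptgs+/+ tumour, a log2 fold of 1.501 (UMI ratio 2.61, 95% interval 2.50 to 2.74). It was seen in 72.9% of the Ptgs-/- and 42.4% of the Ptgs+/+ cells, and in 57.8% and 29.9% at 2000 UMIs per cell. C5ar1 averaged 212 CPM in the Ptgs-/- and 326 CPM in the Ptgs+/+ tumour, a log2 fold of -0.61 (UMI ratio 0.638, 95% interval 0.608 to 0.669). Neutrophil markers moved with C5ar1, C3 and Cfp. The sum of the 7 neutrophil markers in these monocytes and macrophages was 175 CPM in the Ptgs-/- and 629 CPM in the Ptgs+/+ tumour, with Ly6g at 0 in both. Without cells holding a UMI of Cd3e, Ncr1, Cd79a or the neutrophil marker S100a8, the log2 folds of C5ar1, C3 and Cfp were -0.60, -0.66 and -0.42. The part of the neutrophil markers in the lower levels was not tested further. The sum of the 8 macrophage markers was 7490.0 CPM in the Ptgs-/- and 6574 CPM in the Ptgs+/+ tumour.

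The mix of clusters also differed between the libraries. TAM 2, low in C1q, made up 7.54% of the monocytes and macrophages of the Ptgs-/- tumour and 28.7% of those of the Ptgs+/+ tumour. Monocytes 1, high in C1q, made up 21.8% in the Ptgs-/- and 9.58% in the Ptgs+/+ tumour. With the 7 clusters weighted equally, the log2 folds of C1qa, C1qc and C3ar1 were 0.92, 0.90 and 1.23 and those of Cfp and C5ar1 were -0.68 and -0.66, all past 1.5-fold. Under this weighting C1qb at 0.22, C3 at -0.27 and Cfb at 0.41 were within 1.5-fold, so these pooled differences did not hold at equal weights. C3 at -0.57, C5ar1 at -0.58 and Cfb at 0.39 were within 1.5-fold when 20 CPM was added in place of 5 CPM.

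Within clusters, C3ar1 was called higher in the Ptgs-/- tumour in 7 of 7 clusters, with log2 folds from 0.78 in Monocytes 1 to 1.86 in TAM 2. In Monocytes 2 it passed the 5% filter through the Ptgs-/- tumour alone, with 8.95% of cells against 2.30%. Of all genes, 8.84% were called higher in TAM 1, 16.5% in TAM 2, 14.0% in TAM 3, 20.3% in TAM 4, 14.3% in Mono Mac, 8.95% in Monocytes 1 and 10.8% in Monocytes 2. C5ar1 was called lower in 6 of 7 clusters, with log2 folds from -1.26 to -0.39, and TAM 1 at -0.39 was within 1.5-fold. Cfp was called lower in 5 of 7 clusters, with TAM 4 at -0.15 and Monocytes 2 at 0.26 within 1.5-fold. Of all genes, 7.25% were called lower in TAM 1, 11.1% in TAM 2, 13.6% in TAM 3, 15.2% in TAM 4, 12.2% in Mono Mac, 7.96% in Monocytes 1 and 6.78% in Monocytes 2.

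The C1q chains were less uniform. C1qa and C1qc were each called higher in 5 of 7 clusters, most in TAM 2, where C1qa averaged 264 CPM in the Ptgs-/- and 47.7 CPM in the Ptgs+/+ tumour, a log2 fold of 2.35, and passed the 5% filter through the Ptgs-/- tumour alone (21.2% of cells against 3.83%). In Monocytes 1 the log2 folds were 0.72 for C1qa and 0.66 for C1qc but 0.05 for C1qb. Mono Mac went the other way for all 3 chains, with C1qa at 289 CPM in the Ptgs-/- (243 cells) and 569.5 CPM in the Ptgs+/+ tumour (57 cells). C3 was called lower in TAM 3, at -1.53, and in Mono Mac, at -0.66, where it passed the 5% filter through the Ptgs+/+ tumour alone. In Monocytes 2, the cluster with the most C3, the log2 fold of C3 was -0.19.

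**Figure D2:**
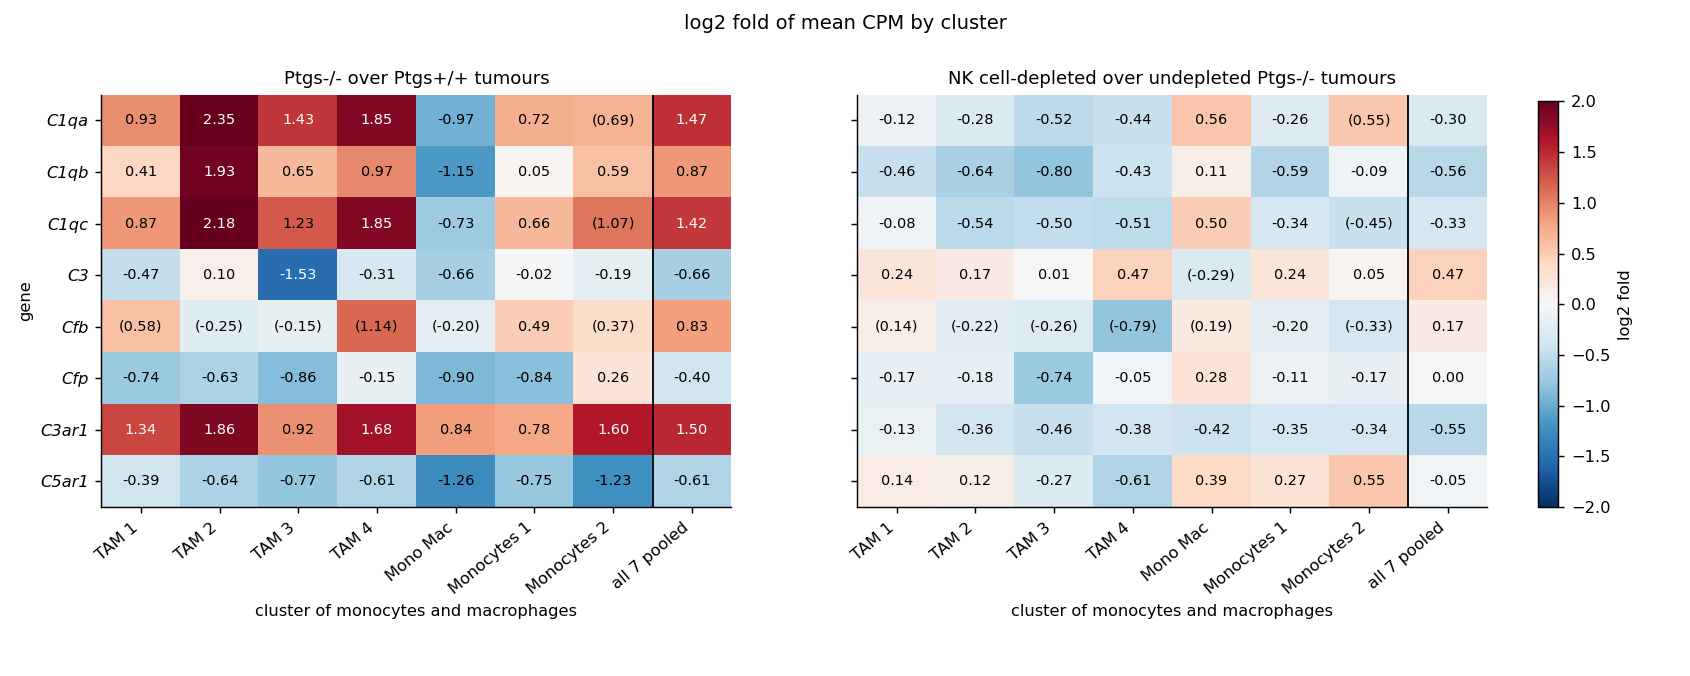
Log2 fold of mean CPM of each gene (rows) in each cluster of monocytes and macrophages and in all 7 pooled (columns), for Ptgs-/- over Ptgs+/+ tumours (left) and NK cell-depleted over undepleted Ptgs-/- tumours (right), with values in parentheses where the gene was in under 5% of cells of both groups and colours at their darkest beyond 2 in size. The C3ar1 row is positive in all 7 clusters on the left (0.78 to 1.86) and the C5ar1 row is negative in all 7.

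Because C1q needs all 3 chains, cells with a UMI of each were counted. They made up 46.2% of the monocytes and macrophages of the Ptgs-/- tumour (95% interval 44.5 to 48.0%) and 19.4% of those of the Ptgs+/+ tumour (17.9 to 21.1%). At 2000 UMIs per cell the shares were 37.5% in the Ptgs-/- and 16.3% in the Ptgs+/+ tumour. In TAM 1 alone 72.0% of the Ptgs-/- and 43.3% of the Ptgs+/+ cells held all 3 chains. Of the NK cells, which should lack C1q, 0 of 510 in the Ptgs-/- and 0 of 137 in the Ptgs+/+ tumour did (upper limits 0.721% and 2.66%). No chain was seen in 92.9% and 98.5% of these NK cells, and C1qa averaged 18.9 and 1.78 CPM in them. In Monocytes 2 (8.70 CPM) and cDC3s (16.0 CPM) of the Ptgs-/- tumour C1qa was below its NK cell level. The part of free RNA in the C1q calls of those 2 classes was not tested.

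The balance among the chains differed between libraries too. In monocytes and macrophages there were 1.37 C1qa UMIs per C1qb UMI in the NK cell-depleted tumour (95% interval 1.34 to 1.40), 1.10 in the undepleted Ptgs-/- tumour (1.07 to 1.12) and 0.765 in the Ptgs+/+ tumour (0.739 to 0.793). The order was the same within TAM 1, at 1.502, 1.16 and 0.833 in those 3 tumours, and within Monocytes 1, at 1.40, 1.08 and 0.713. Over the 7 clusters and the cDC2s, the ratio was higher in the Ptgs-/- than in the Ptgs+/+ tumour in 8 of 8 classes, with separate intervals in 4, and higher in the NK cell-depleted than in the undepleted Ptgs-/- tumour in 8 of 8, with separate intervals in 4. Depth moved with these libraries. In TAM 1 cells below the median depth of the Ptgs-/- tumour (median 4953 UMIs) the ratio was 1.28, against 0.849 in those of the Ptgs+/+ tumour (median 4286 UMIs). In TAM 1 cells at or above the median it was 1.10 in the Ptgs-/- tumour (median 7651 UMIs), against 0.829 in the Ptgs+/+ tumour (median 6677 UMIs). The ratio was thus lower in the deeper TAM 1 cells of the Ptgs-/- tumour, with separate intervals (1.23 to 1.35 and 1.06 to 1.14). In the Ptgs+/+ tumour the intervals overlapped (0.771 to 0.934 and 0.788 to 0.872). The part of depth in the difference between these 2 libraries was not tested. C1qc per C1qb UMI followed, at 0.889 in the NK cell-depleted, 0.725 in the Ptgs-/- and 0.505 in the Ptgs+/+ tumour. All 3 chains were counted from the same cells and libraries, and a difference in how well a library captured 1 of the 3 transcripts cannot be told apart from a difference in the cells with 1 library per group.

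**Figure D3:**
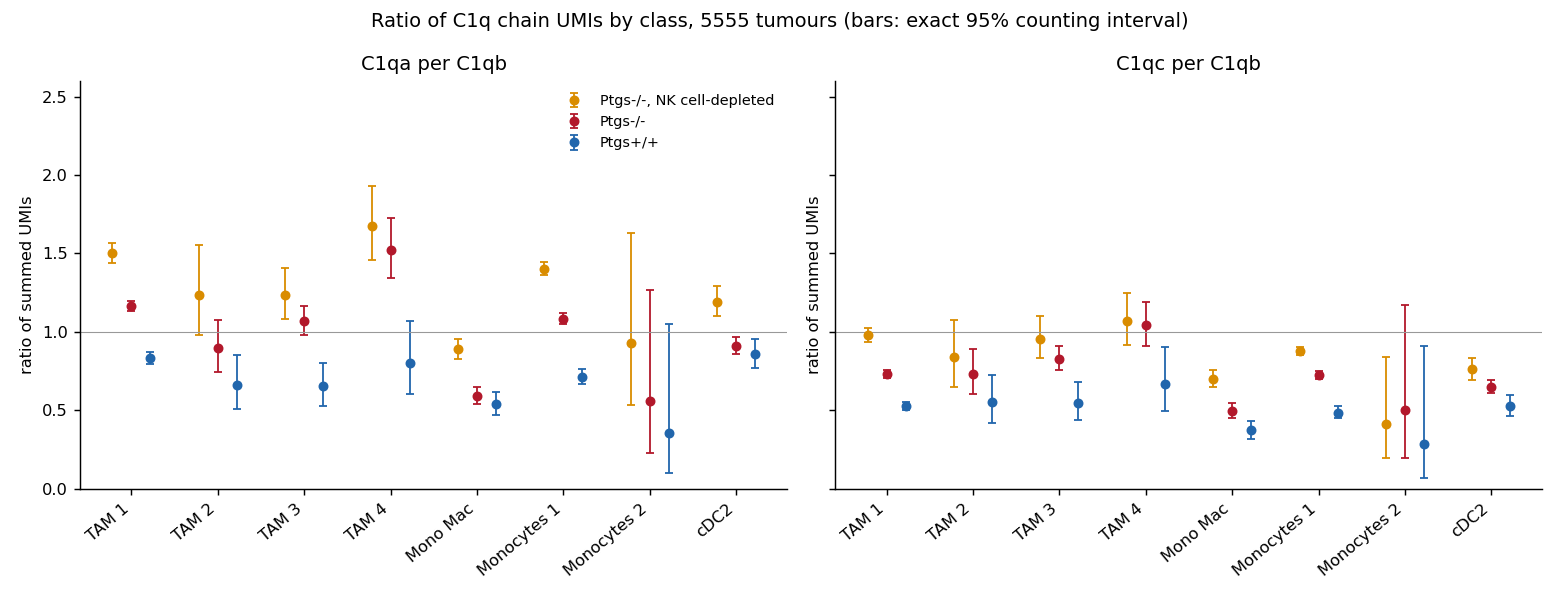
UMIs of C1qa (left) and of C1qc (right) per UMI of C1qb (vertical axis) in each cluster of monocytes and macrophages and in cDC2s of the NK cell-depleted Ptgs-/-, Ptgs-/- and Ptgs+/+ 5555 tumours, with bars for exact 95% counting intervals. The C1qa ratio in TAM 1 is 1.502 in the NK cell-depleted, 1.16 in the Ptgs-/- and 0.833 in the Ptgs+/+ tumour.

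Depletion of NK cells was set against the same undepleted Ptgs-/- tumour, so this comparison and the previous one share a library. In monocytes and macrophages (3108 depleted and 3184 undepleted cells) 0 of 8 members passed 1.5-fold, where 1.14% of 7825 genes were called higher and 1.29% lower. C1qb averaged 650.4 CPM in the depleted and 960.4 CPM in the undepleted tumour, a log2 fold of -0.56. C3ar1 averaged 408 CPM in the depleted and 602 CPM in the undepleted tumour, a log2 fold of -0.55 (UMI ratio 0.707, 95% interval 0.686 to 0.728). C1qa averaged 919 CPM in the depleted and 1129 CPM in the undepleted tumour, a log2 fold of -0.30. Taken relative to the median gene, which shifted by 0.05, both C1qb and C3ar1 were past 1.5-fold at -0.61.

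Within clusters few members were past 1.5-fold. C1qb was called lower in 3 of 7 clusters, namely TAM 2 at -0.64, TAM 3 at -0.80 and Monocytes 1 at -0.59, where 8.54%, 9.55% and 2.05% of all genes in that order were called lower. C3ar1 had log2 folds from -0.46 to -0.13 over the 7 clusters and was called in none. C5ar1 was called lower in TAM 4, at -0.61 where 8.81% of genes were, and Cfp in TAM 3, at -0.74. The share of monocytes and macrophages with all 3 C1q chains was 36.4% in the depleted tumour (95% interval 34.7 to 38.1%) and 46.2% in the undepleted Ptgs-/- tumour. TAM 1 was a smaller part of the monocytes and macrophages, 15.5% in the depleted and 29.3% in the undepleted tumour. The sum of the macrophage markers was 5832 CPM in the depleted and 7490.0 CPM in the undepleted tumour.

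Dendritic cells of the 5555 tumours followed the macrophages in part. In cDC2s (523 Ptgs-/- and 379 Ptgs+/+ cells) 5 of the 7 members seen in at least 5% of cells were called higher and 0 lower in the Ptgs-/- tumour, where 10.7% of 8697 genes were called higher and 7.57% lower. C3ar1 averaged 114 CPM in the Ptgs-/- and 21.1 CPM in the Ptgs+/+ tumour, a log2 fold of 2.19 (UMI ratio 4.84, 95% interval 3.85 to 6.16). C1qa averaged 401 CPM in the Ptgs-/- and 141 CPM in the Ptgs+/+ tumour, a log2 fold of 1.48, and C1qb, C1qc and C3 were called higher at 1.36, 1.60 and 0.68. Cfp was 430.1 CPM in the Ptgs-/- and 636 CPM in the Ptgs+/+ tumour, a log2 fold of -0.56, within 1.5-fold.

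Monocyte and macrophage markers moved with these genes. The sum of the monocyte markers in cDC2s was 3185 CPM in the Ptgs-/- and 1468 CPM in the Ptgs+/+ tumour. Macrophage markers summed to 1829 CPM in the Ptgs-/- and 1173 CPM in the Ptgs+/+ tumour. The macrophage sum was concentrated in the cDC2s with all 3 C1q chains, 146 cells in the Ptgs-/- and 38 in the Ptgs+/+ tumour, where it reached 3555 and 3671 CPM, against 1160.4 and 895 CPM in the other cDC2s. The monocyte sum was 4158 CPM in the 146 Ptgs-/- cells and 1051 CPM in the 38 Ptgs+/+ cells, against 2808 and 1514 CPM in the other cDC2s. In those 146 cells the sum of the 5 cDC2 markers was 1464 CPM and the median depth 10369 UMIs, against 3078 CPM and 6247 UMIs in the other Ptgs-/- cDC2s. The part that monocytes or macrophages annotated as cDC2s or droplets of 2 cells play in the cDC2 values was not tested. Under NK cell depletion C1qb, C1qc and C5ar1 were called lower in cDC2s, at -0.84, -0.61 and -0.84, where 3.49% of genes were called lower.

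The other dendritic cell classes were small. Cfp was lower in cDC1s of the Ptgs-/- tumour, 80.9 CPM (33 cells), than in those of the Ptgs+/+ tumour, 165 CPM (38 cells), a log2 fold of -0.98 where 21.8% of genes were called lower. C1qa had no UMI in cDC1s of either tumour. In cDC3s (58 and 54 cells) Cfp averaged 48.3 CPM in the Ptgs-/- and 83.7 CPM in the Ptgs+/+ tumour, a log2 fold of -0.73 where 23.7% of genes were called lower, and the UMI ratio of 0.670 had an interval of 0.376 to 1.18 that spans 1. The C1q chains, C3 and C3ar1 were called higher in the Ptgs-/- cDC3s, where 24% of genes were, on 4 to 12 UMIs against 0 to 2 UMIs, and all 5 passed the 5% filter through the Ptgs-/- tumour alone. Under NK cell depletion (45 depleted and 58 undepleted cells) C1qa, C1qb, C3, Cfp and C3ar1 were called lower in cDC3s, where 19.9% of genes were, and the UMI ratio of Cfp alone had an interval below 1, at 0.380 (0.139 to 0.903). The undepleted cells are the same Ptgs-/- cDC3s as above. C3 and C3ar1 had no UMI in the depleted cDC3s and C1qa averaged 2.84 CPM there, so these genes passed the 5% filter through the undepleted tumour alone. In neutrophils the log2 fold of C5ar1 was -0.70 where 19.0% of genes were called lower, with an interval of the UMI ratio, 0.592 to 1.10, that also spans 1. That fold is relative to a median gene that shifted by 0.19, and without this centring it was within 1.5-fold.

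Inside Monocytes 1, C3 was seen in a smaller share of the cells with all 3 C1q chains than of the other cells. After thinning to 2000 UMIs, C3 was seen in 6.78% of the Monocytes 1 cells with all 3 C1q chains (354 cells) and in 16.1% of the others (341 cells) in the Ptgs-/- tumour. The same shares were 9.86% and 17.9% in the NK cell-depleted tumour, and in both tumours the 95% intervals were separate, while they overlapped in the Ptgs+/+ tumour at 8.79% and 15.6%. C5ar1 was seen in 42.9% of the Ptgs-/- Monocytes 1 cells with all 3 chains and 22.0% of the others, and in 41.8% and 26.4% in the NK cell-depleted tumour. In the Ptgs+/+ tumour those shares were 48.4% and 50.4%. C3ar1 was seen in 61.9% of the Ptgs-/- Monocytes 1 cells with all 3 chains, against 44.3% of the others, but in TAM 1 the 2 shares were 74.7% and 72.8%.

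The CT26 tumour is set beside these values without a comparison, since the line, the host strain and the day all differ. C1qa was highest in TAM 2 at 1335 CPM, followed by TAM 3 at 761 CPM and Monocyte 3 at 629 CPM, and monocyte-derived dendritic cells (moDCs) had 455 CPM. C3 was highest in Monocyte 1, at 203 CPM, where C1qa was 25.9 CPM, the lowest of the 6 monocyte and macrophage clusters. The cluster with the most C3 was thus the one with the least C1qa in CT26 as in each 5555 library. Cfb was at 37.6 CPM in Monocyte 2 and 34.8 CPM in Monocyte 3. Cfp peaked in TAM 1 at 763 CPM, a cluster with C3 at 9.34 CPM and the macrophage marker sum at 1731 CPM, the lowest of the 6 clusters. The label of TAM 1 is thus not borne out by the macrophage markers. Its monocyte marker sum was 4815 CPM and its cDC2 marker sum 1106 CPM, against 6252 and 415 CPM in the 6 clusters pooled. C3ar1 peaked in Monocyte 3 at 662 CPM and C5ar1 in the same cluster at 142 CPM. Cells with all 3 chains made up 17.5% of the monocytes and macrophages (13.7% at 2000 UMIs), and there were 1.36 C1qa UMIs per C1qb UMI. In cDC2s C1qa was 17.6 CPM.

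**Figure D4:**
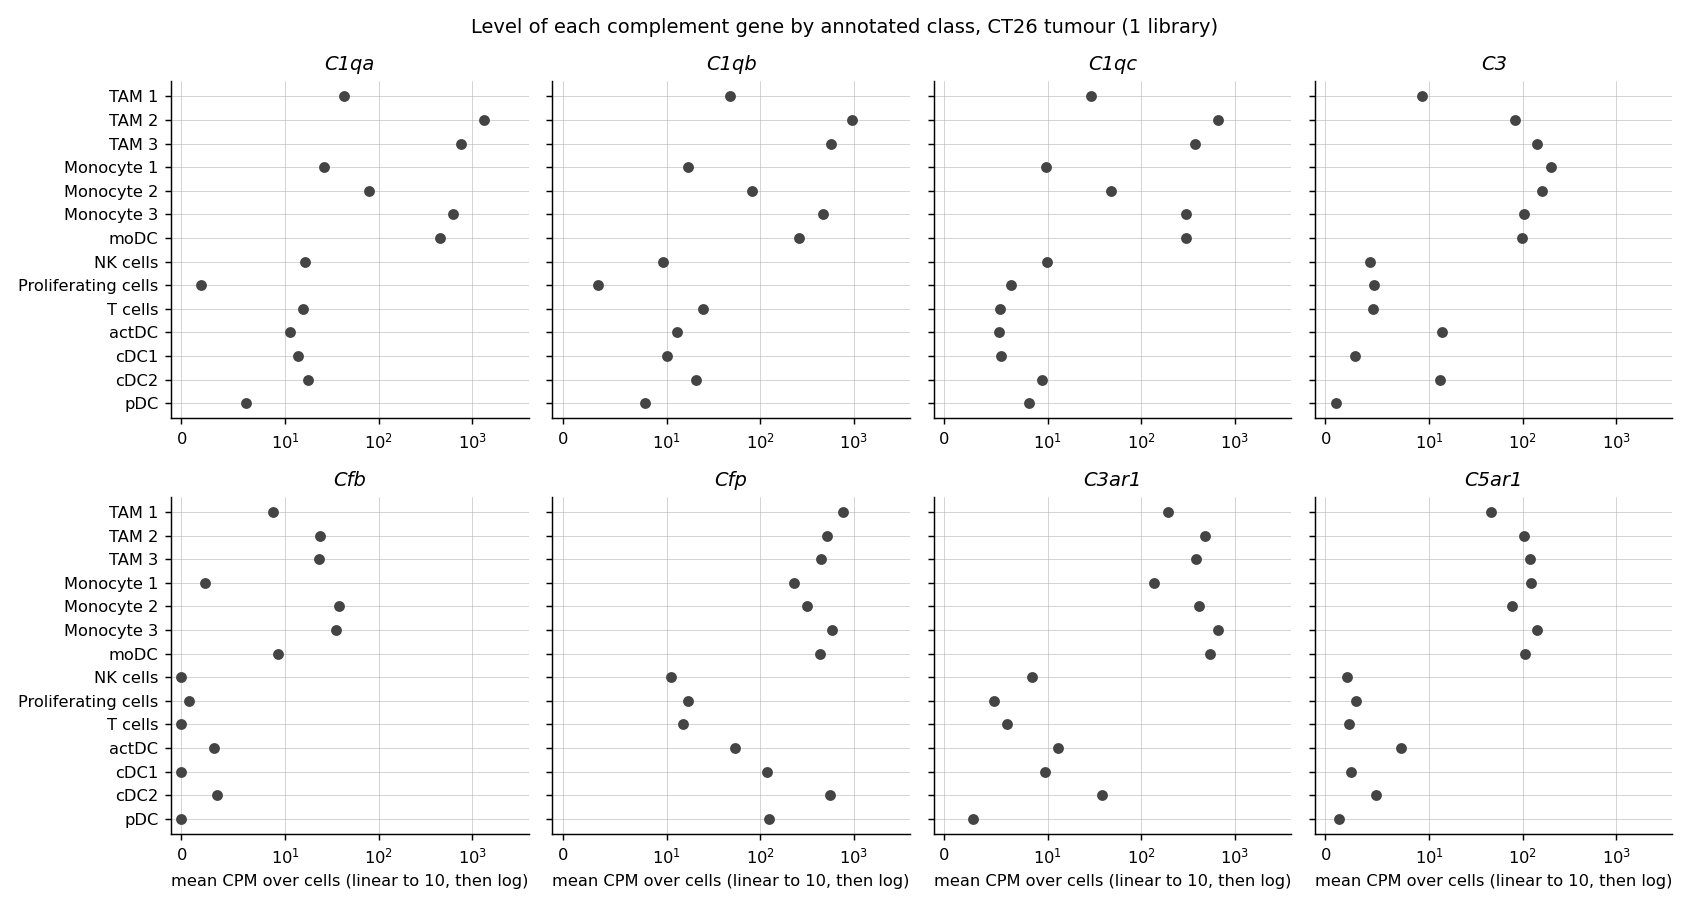
Mean CPM over cells (horizontal axis, linear to 10 and logarithmic above) of each gene in each annotated class of at least 30 cells (rows) of the CT26 tumour, 1 point per class and no error bars. C1qa is highest in TAM 2 at 1335 CPM, and C3 is highest in Monocyte 1 at 203 CPM.

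Cultured dendritic cells had little complement RNA besides Cfp, the 1 member seen in at least 5% of all cells. It averaged 109.5 CPM in cultures with Ptgs-/- cells, 137 CPM in cultures with Ptgs+/+ cells and 133 CPM in untreated cultures. The 3 comparisons share these conditions. The median gene shifted by -0.15 with Ptgs-/- and -0.24 with Ptgs+/+ cells against untreated cultures over all cells, and folds are given relative to such a shift where it is past 0.1. Over all cells no member passed 1.5-fold in any of the 3 comparisons, where 6.17%, 13.5% and 2.78% of genes did in either direction with Ptgs-/- cells over untreated, with Ptgs+/+ cells over untreated and with Ptgs-/- over with Ptgs+/+ cells.

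By class, Cfp differed in cDC1s and in the class the authors call mDC. In cDC1s it averaged 66.9 CPM with Ptgs-/- cells (1059 cells), 118 CPM with Ptgs+/+ cells (1111 cells) and 82.7 CPM in untreated cultures (1165 cells). The log2 fold was -0.78 with Ptgs-/- over with Ptgs+/+ cells (UMI ratio 0.551, 95% interval 0.497 to 0.609), where 0.847% of genes were called lower. It was 0.73 with Ptgs+/+ cells over untreated, where 7.36% were called higher. The 0.73 is relative to a median gene that shifted by -0.24 in cDC1s, and without this centring the fold was within 1.5-fold. The -0.78 was not centred. Proliferating cDC1s gave 65.1 CPM with Ptgs-/- and 108 CPM with Ptgs+/+ cells, a log2 fold of -0.69 where 1.12% of genes were called lower. In mDCs Cfp was 40.3 CPM with Ptgs-/- cells, 36.4 CPM with Ptgs+/+ cells and 84.3 CPM in untreated cultures, so both co-cultures were lower, at -0.75 and -0.83 where 9.13% and 10.8% of genes were called lower. In plasmacytoid dendritic cells (pDCs) Cfp was called lower with Ptgs-/- cells over untreated, at -0.80 where 12.0% of genes were.

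The other members were sparse in culture. C1qb in cDC2s was 41.4 CPM with Ptgs-/- cells, 31.3 CPM with Ptgs+/+ cells and 42.3 CPM in untreated cultures, and C1qa per C1qb UMI in these cells was 0.358, 0.332 and 0.185 in that order, well under the tumours. C3 was seen in 36 UMIs from 15 of 200 pDCs with Ptgs+/+ cells and in 25 UMIs from 9 of 312 with Ptgs-/- cells, against 1 UMI in 200 untreated pDCs. With Ptgs+/+ cells over untreated it was called higher in pDCs, as were 13.1% of genes, and it passed the 5% filter through the Ptgs+/+ condition alone (7.50% of cells against 0.50%). In proliferating cDC2s, C3 was 11.2 CPM with Ptgs-/- cells, 16.3 CPM with Ptgs+/+ cells and 3.98 CPM in untreated cultures, called higher in both co-cultures, where 4.48% and 8.82% of genes were, and it passed the filter through the co-cultures alone. Cfb had 8 UMIs in all cells of each co-culture condition.

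**Figure D5:**
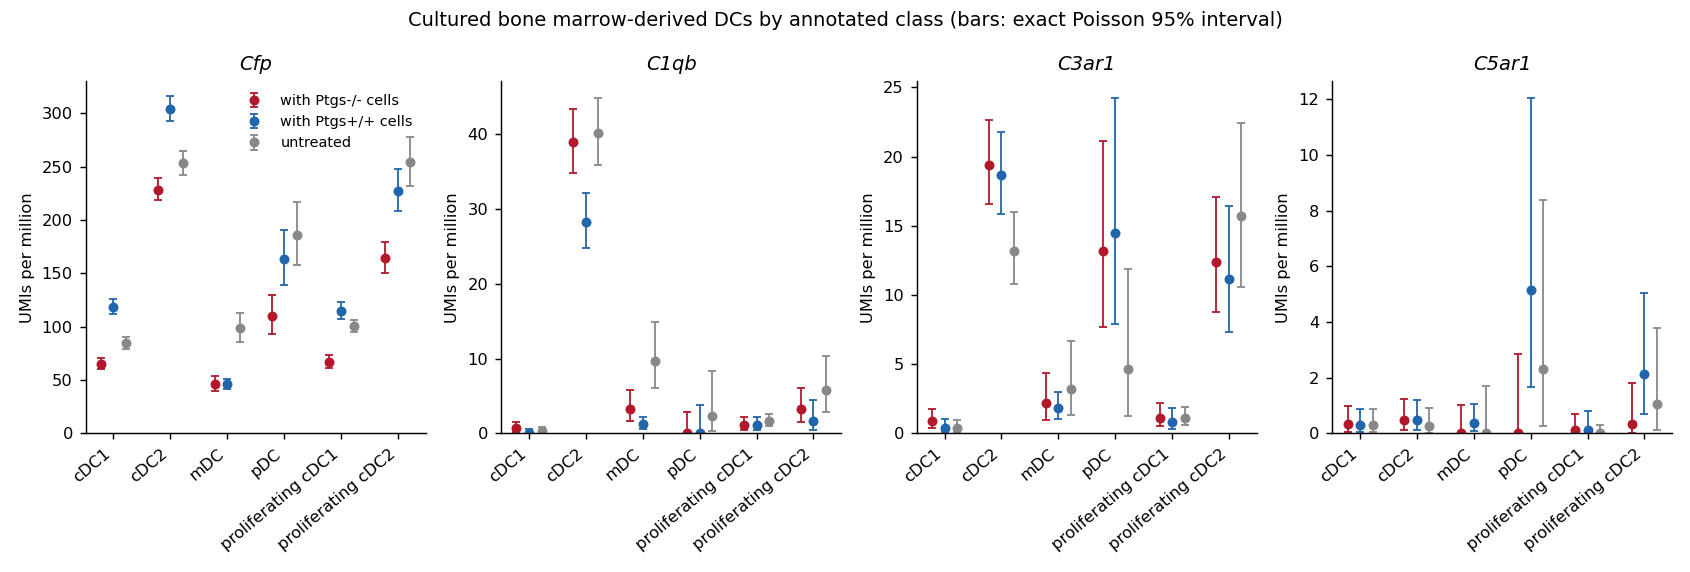
Summed UMIs of Cfp, C1qb, C3ar1 and C5ar1 per 1000000 UMIs of all genes (vertical axes, each with its own range) by annotated class (horizontal axes) in the cultured dendritic cells with Ptgs-/- cells, with Ptgs+/+ cells and untreated, 3 hashtagged conditions of 1 library, with bars for exact Poisson 95% intervals that cover counting error only. Cfp in cDC1s is 65.3 with Ptgs-/- cells (60.1 to 70.9), 118.6 with Ptgs+/+ cells (111.9 to 125.6) and 84.6 untreated (79.0 to 90.4), and these sums weight deep cells more than the mean CPM in the text does.

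Of 46 other complement genes, 34 were in the 5555 matrix and 12 of these were in at least 5% of monocytes and macrophages. Between the Ptgs-/- and Ptgs+/+ tumours 1 was called higher and 1 lower, with a median log2 fold of -0.05. C4b, a classical pathway component, averaged 29.1 CPM in the Ptgs-/- and 7.89 CPM in the Ptgs+/+ tumour, a log2 fold of 1.40. It passed the 5% filter through the Ptgs-/- tumour alone, with 6.69% of cells against 1.82%, and its near-identical neighbour C4a makes its UMIs uncertain. Itgax, which encodes a chain of complement receptor 4 and is also a dendritic cell marker, averaged 61.6 CPM in the Ptgs-/- and 239.7 CPM in the Ptgs+/+ tumour, a log2 fold of -1.88. C1rl at 0.56 and Itgb2, the shared integrin chain, at -0.50 were within 1.5-fold. Under NK cell depletion 0 of the 12 passed, and the folds included -0.56 for Itgax, -0.55 for the second C5a receptor gene C5ar2 and 0.42 for C4b.

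In the cultures 8 of 33 such genes were in at least 5% of cells. With Ptgs+/+ cells over untreated, Cd93, once described as a C1q receptor, was called higher at 1.17 while Itgax was called lower at -0.66. With Ptgs-/- cells over untreated Cd93 was called higher at 0.82.

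Genes whose levels ran closest to each member were sought over 39 points, 13 classes in 3 libraries of the 5555 tumours, among 9157 genes, and the points share libraries and depth. The C1q chains summed were closest to Mrc1, which encodes the mannose receptor (Pearson r 0.95), Rab3il1 and Mertk, a receptor for dying cells (both 0.92). C3 was closest to Klra2 (0.93), Mtus1 (0.92) and Mgst1 (0.91), and Cfb to Siglec1 (0.84), Scamp5 (0.84) and Ccl8 (0.82). Cfp was closest to App (0.91), Cd300c2 (0.89) and Cd68 (0.89). C3ar1 was closest to Snx24, Ctsl and Trem2 (each 0.93). C5ar1 was closest to Slc11a1 (0.95), Ccr1 (0.94) and C5ar2 (0.94).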

How the data were processed

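Live CD45+ cells of 4 tumour libraries and 1 pool of cultured dendritic cells were profiled on the 10x platform, with Cell Ranger 3.0.2, mm10 and Partek named in the submitters' processing notes. The deposited values are log2(CPM + 1) per cell, and the authors deposited the library, condition and class labels used here. Doublet removal is not given in the sources used here, and no doublet caller was run. UMI counts were recovered from the deposited log2 values. Of the values, 99.9% were whole within 0.1 UMI plus 0.01%. Levels are means of CPM over cells. Folds used a pseudocount of 5 CPM and were taken relative to the median gene (among genes in at least 10% of cells of either group) where it shifted by over 0.1. Genes in under 5% of cells of both groups were not called, and classes under 30 cells were not compared. UMI ratios are taken on UMIs summed over cells and have exact conditional binomial 95% intervals, shares exact Clopper-Pearson ones. Cells were thinned to 2000 UMIs for shares. With 1 library per group no test was made. Every member is named, with up to 4 other complement genes per comparison by absolute fold and the 3 closest genes per member by Pearson correlation of log2(mean CPM + 5). Of those other complement genes, 1 is not reported here. Members and gene lists were chosen with earlier results of these data known. The fold calculation was tested on simulated data. Gene positions are from GENCODE and promoters from RefSeq. Alternatives were other pseudocounts (1 and 20 CPM), weightings, filters on genes and cells, and centring. Analyses used Python 3.11.15, numpy 2.4.6, scipy 1.17.1 and pandas 2.3.3.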

Additional observations from a re-analysis of the deposited data

Results flagged for a closer look

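The Mono Mac cluster stood against the other clusters for all 3 C1q chains. Between the Ptgs-/- and Ptgs+/+ tumours its log2 fold was -0.97 for C1qa, where 5 other clusters were past 1.5-fold in the positive direction. It was -1.15 for C1qb, against 4 other clusters, and -0.73 for C1qc, against 5 others. Of the 4 for C1qb, Monocytes 2 at 0.59 passed the 5% filter through the Ptgs-/- tumour alone, with 5.06% of cells against 2.30%, and its UMI ratio of 1.55 had an interval of 0.729 to 3.37. Of the 5 for C1qa, TAM 2 passed it through the Ptgs-/- tumour alone. The difference between Mono Mac and the other clusters was not tested, since each tumour was 1 library, and the Ptgs+/+ side holds 57 Mono Mac cells. The sum of the macrophage markers in Mono Mac was 1850.4 CPM in the Ptgs-/- and 2800.1 CPM in the Ptgs+/+ tumour, the same direction as the C1q chains, and its part in the result was not tested.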

How the results depend on the processing

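No paired analysis was possible because each group is 1 library or 1 hashtagged condition. Between the Ptgs-/- and Ptgs+/+ tumours 7 of 8 members were called, and 4 with 20 CPM added. Between the NK cell-depleted and undepleted Ptgs-/- tumours 0 were called, but 4 (C1qa, C1qb, C1qc and C3ar1, all lower) when log2 values were averaged over cells before subtracting, and 2 when always centred. The share of monocytes and macrophages with all 3 C1q chains was 36.4% in the NK cell-depleted, 46.2% in the Ptgs-/-, 19.4% in the Ptgs+/+ and 17.5% in the CT26 tumour. It was 28.2%, 37.5%, 16.3% and 13.7% in that order after thinning, 53.5%, 63.6%, 30.1% and 30.8% with any chain, and 31.2%, 39.4%, 16.4% and 15.5% with at least 2 UMIs of each. Of 1724 alternative values, 194 moved beyond the counting interval of the main value. A reversal of sign was counted for called folds alone, 86 of the 190 folds compared. Of these 86, 4 reversed under an alternative, all from sparse classes. By averaged log2 values these were C1qc in cDC1s between the Ptgs-/- and Ptgs+/+ tumours at -0.0141 and C1qa in B cells under NK cell depletion at -0.072. With at least 500 genes per cell they were Cfp at 0.16 and C3ar1 at -1.59 in neutrophils under NK cell depletion. The cause was not tested. Cfb in the tumours and all members except Cfp in culture rest on few UMIs, although the cultures were the deepest groups.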
